A study of Homo sapiens with 8 samples.

Results

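The 10 genes described here encode core subunits of the Polycomb repressive complexes PRC1 and PRC2 and a demethylase of the mark that PRC2 lays down. EZH2, EZH1, SUZ12 and EED belong to PRC2, BMI1, CBX7, CBX8, RING1 and RNF2 to PRC1, and KDM6B is the demethylase. The genes were chosen by name as regulators linked to the p16 (CDKN2A) locus and matched by Ensembl ID. All 10 are among the 57736 gene IDs of the series. They were read in 8 libraries of IMR90 cells, human fetal lung fibroblasts, with 1 library in each group. An RNA-seq experiment compared control cells with cells under knockdown of ADAR1 (gene ADAR), which converts adenosine to inosine in RNA duplexes. A second experiment took shControl cells, shADAR1 cells and shHuR cells, in which a short hairpin RNA targets HuR (gene ELAVL1), and sequenced an anti-HuR precipitate and an input of each line. The labels give no time after knockdown, no number of hairpins and no separate cultures, and the experiment held no mock precipitate. From its title, the series asks how lower ADAR1 bears on p16 in senescence.

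PRC2 methylates histone H3 at the lysine known as K27 through EZH2 or its paralog EZH1, and needs SUZ12 and EED for that activity. Canonical PRC1 reads the mark through a CBX protein and ubiquitinates histone H2A through RING1 or RNF2, paired with a PCGF protein such as BMI1. In fibroblasts these complexes can repress the CDKN2A and CDKN2B genes, and KDM6B takes the methyl groups off. EZH2 is made mostly in dividing cells, whereas EZH1 is also found in resting ones. HuR binds U-rich and AU-rich stretches, mostly in the 3′ untranslated region (3′ UTR) of mRNAs, and can stabilise them.

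The 3′ UTRs of the members differ in the letters HuR is known to bind. The stretches below were chosen for display with recovery by the HuR antibody already known. By longest T run the order is RNF2, KDM6B, CBX8 and SUZ12, and by recovery in shControl it is RNF2, SUZ12, KDM6B and CBX8. They are read as DNA from GENCODE 29 principal transcripts on GRCh38, each at most 30 bases, and capitals mark the longest run of T in each of the 4 members whose 3′ UTR holds a run of 7 or more T.
RNF2, chr1:185101830-185101857, plus strand: gggTTTTTTTTTTTTTTTTTTTTTTgta
KDM6B, chr17:7853675-7853703, plus strand: gaaaaacTTTTTTTTTTTTTTTagcaaat
CBX8, chr17:79794038-79794066, minus strand: tttttctaTTTTTTTTTTTTTaaggtaaa
SUZ12, chr17:31999737-31999764, plus strand: ccggtatgTTTTTTTTTTTTaacttgaa
SUZ12, CBX7 and CBX8 carry 3 copies of TTTATTT each, and EED, RNF2 and KDM6B 1 each. BMI1 has no run of 7 T and carries 4 copies, of which the second and the last are shown with the motif in capitals.
BMI1, chr10:22330859-22330887, plus strand: acaattttcagTTTATTTtttgctttggt
BMI1, chr10:22331431-22331459, plus strand: agatgtatctgTTTATTTacagtctttga
The short 3′ UTR of EZH2 holds neither motif, and the first of its 2 copies of ATTTA is shown in capitals.
EZH2, chr7:148807560-148807586, minus strand: tactgtgggcaATTTAgaaaaagaaca
The longest T run has 22 bases in RNF2, 15 in KDM6B, 13 in CBX8 and 12 in SUZ12. Counting every start of TTTTTTT on the transcript strand, overlaps included, RNF2 has 34 in a 3′ UTR of 2307 bases, KDM6B 10 in 1275, CBX8 9 in 2503 and SUZ12 7 in 2042. Among 3′ UTRs within 25% of the same length, as many are found in 0.532% for RNF2, 7.71% for KDM6B, 22.8% for CBX8 and 23.7% for SUZ12. The other 6 members have none: the 3′ UTRs of EZH2, EED and RING1 are 261, 211 and 323 bases long, and those of EZH1, BMI1 and CBX7 are 2257, 1942 and 3119. A run of letters in an annotated UTR is not evidence that HuR sits there or that IMR90 cells use that UTR.

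Total counts ranged from 28390935 to 50711218 a library. Against their controls, ADAR was lower by 7.01-fold in the RNA-seq knockdown and by 2.93-fold in the shADAR1 input, and ELAVL1 by 6.65-fold in the shHuR input. The 8 fibroblast markers (COL1A1, COL1A2, COL3A1, VIM, PDGFRB, THY1, DCN, LUM) were detected in every library, with a summed level of 3170 to 9370 CPM (scaled counts per 1e+06 counts), against 0.664 to 15.3 for 4 epithelial, 4.70 to 77.7 for 3 endothelial and 0.0331 to 4.08 for 4 leukocyte markers, among which KRT5, CDH5 and CD3E were at 0 in all 8. The endothelial sum was mostly TEK and was 55.6 CPM in the shADAR1 input against 13.6 in shControl and 26.8 in shHuR. The leukocyte sum was 4.08 in the shADAR1 input, all of it CD14, against 0.0575 in shControl and 0.415 in shHuR. The epithelial sum was 14.5 and 15.3 in the RNA-seq libraries, mostly CLDN4, against 0.664 to 1.47 in the inputs. The part of these markers in the results was not tested. Ratios between libraries moved with base composition. In the RNA-seq pair the median log2 ratio went from -0.52 in genes under 40% GC to 0.29 in genes of 60% or more, in the shADAR1 input from 0.23 to -0.44, in the shHuR input from 0.23 to -0.51, and in the shControl precipitate from 1.17 to -2.43. The members span this range, from 38.0% GC in SUZ12, 38.1% in RNF2 and 39.1% in BMI1 to 59.2% in CBX7, 61.6% in RING1 and 62.4% in KDM6B. Values with the GC and length trends removed are therefore given beside many of the ratios, and wherever they change a member's call.

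Levels of the members were compared with each other as CPM per kilobase of the principal transcript. In the RNA-seq control BMI1 (16.9), SUZ12 (14.0), EZH2 (12.3), RNF2 (11.5) and EED (9.46) led, followed by RING1 (5.82) and EZH1 (5.63), with CBX8 (0.962), CBX7 (0.195) and KDM6B (0.0306) far below. EZH2 and RNF2, and RING1 and EZH1, did not differ beyond counting error, and every other neighbouring pair did. In the shControl input RING1 led with 22.4 CPM per kilobase, before SUZ12 (10.5), BMI1 (9.15), RNF2 (7.95), EZH2 (4.87), EZH1 (3.48), KDM6B (3.29), EED (2.49), CBX7 (1.63) and CBX8 (1.26). In that order all neighbours differed beyond counting error apart from EZH1 and KDM6B. RING1 and KDM6B, the 2 members richest in GC, stood lower in the RNA-seq order than in the input order. KDM6B had 8 and 30 counts in the RNA-seq libraries against 706 to 1152 in the inputs, so it was too scarce for a call there. The experiments were scaled separately, and their difference in level was not tested.

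**Figure D1:**
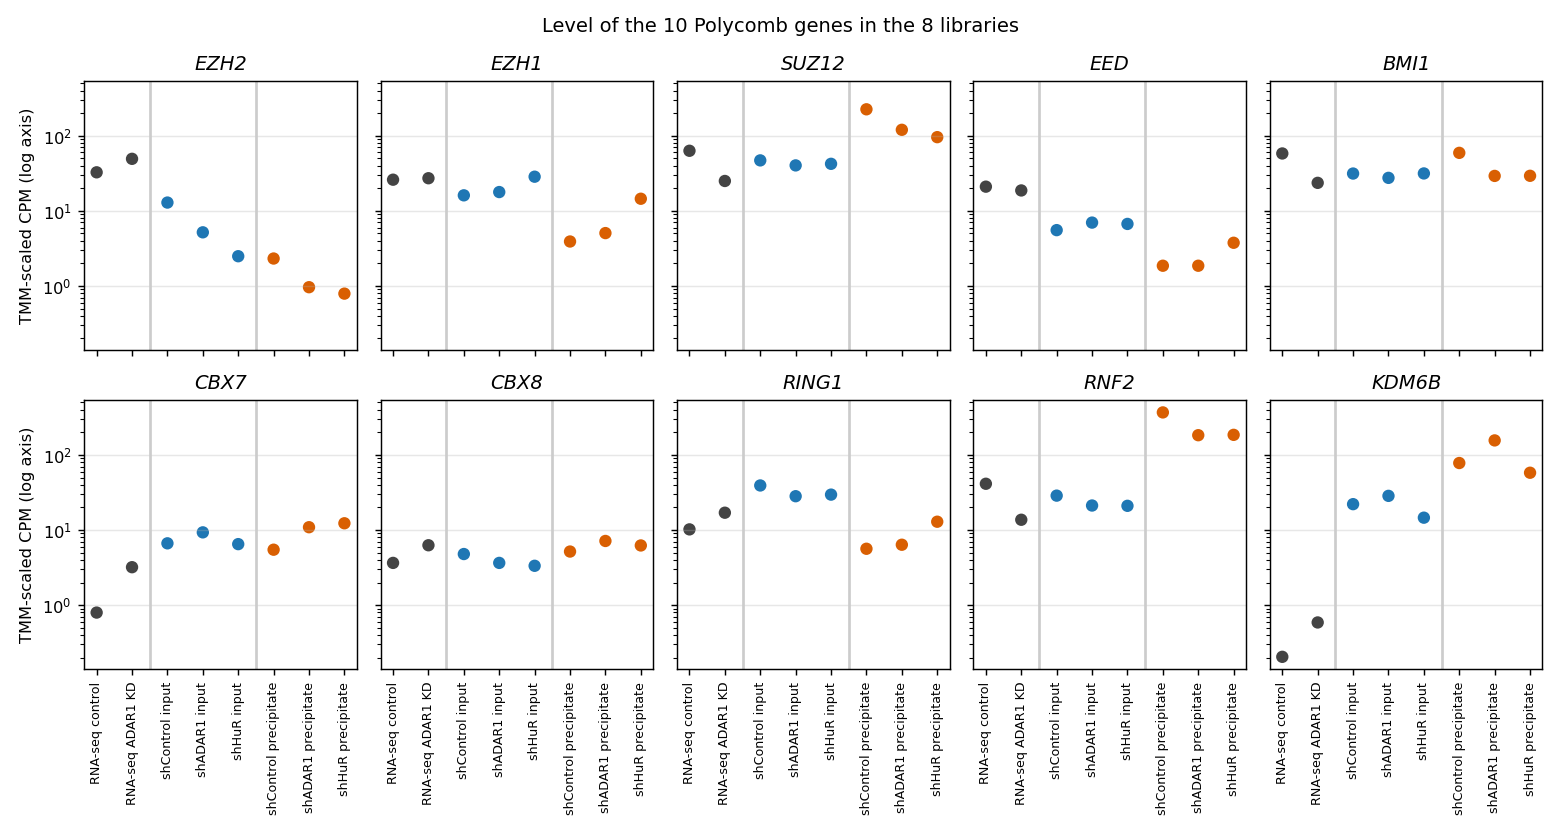
Level of each of the 10 genes in the 8 libraries, as TMM-scaled CPM on a log axis, with RNA-seq in grey, inputs in blue and anti-HuR precipitates in orange; each point is 1 library, and RNA-seq was scaled separately from the other 6. EZH2 steps down from shControl to shADAR1 to shHuR in the inputs, and RNF2, SUZ12 and KDM6B lie higher in the precipitates than in the inputs.

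EZH2, the PRC2 methyltransferase made mostly in dividing cells, was the only member called in either input comparison. It moved the other way in the RNA-seq pair. Its level was 32.6 CPM in RNA-seq control cells and 49.3 under ADAR1 knockdown, and it was 12.9 in the shControl input, 5.18 in the shADAR1 input and 2.49 in the shHuR input. In the RNA-seq the knockdown thus stood above its control, while both knockdown inputs stood below theirs. The log2 ratio was 0.60 in the RNA-seq pair (95% interval 0.50 to 0.70), which is 1.51-fold higher and short of the 2-fold limit for a call. It was -1.31 (-1.55 to -1.08, 2.48-fold lower) in the shADAR1 input and -2.38 (-2.67 to -2.10, 5.21-fold lower) in the shHuR input. With the GC and length trends removed the values were 0.65, -1.38 and -2.50. All intervals here cover counting error only, and with 1 library a group a pair of libraries has no replicate check. The shADAR1 and shHuR inputs were both compared with the same shControl library.

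Genes of the cell cycle were lower in the same 2 inputs. Of the 22 proliferation genes listed, 22 were lower in the shHuR input, against 15.9% of all genes tested (median log2 ratio -3.82, against -0.03), and 12 were lower in the shADAR1 input, against 10.3% (median -1.08, against -0.03). In the RNA-seq pair 2 of 21 were higher, against 8.31% of all genes, and 0 lower (median 0.38, against -0.01). MKI67, a marker of dividing cells, had 5782 counts in the shControl input, 1982 in the shADAR1 input and 215 in the shHuR input, and its log2 ratio in the RNA-seq pair was -0.04. The part of proliferation in the EZH2 values was not tested. In these bulk libraries, fewer cells expressing a gene and less of its RNA per cell cannot be told apart.

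EZH1, the PRC2 methyltransferase that is also found in resting cells, went the other way from EZH2 across the inputs. It stood at 16.1 CPM in the shControl input, 17.8 in the shADAR1 input and 28.5 in the shHuR input, and at 26.0 and 27.2 in the RNA-seq control and knockdown. The shHuR input was the highest of the 3, by 1.76-fold over shControl (log2 ratio 0.81, 0.69 to 0.94), below the limit for a call, and the RNA-seq pair hardly differed (0.06, -0.06 to 0.18). Per length, EZH2 exceeded EZH1 by 1.40-fold in the shControl input (interval 1.26 to 1.55), whereas EZH1 exceeded EZH2 by 1.97-fold in the shADAR1 input (1.67 to 2.32) and by 6.55-fold in the shHuR input (5.43 to 7.96). The order of the 2 enzymes was thus turned in both knockdown inputs. In the RNA-seq libraries EZH2 was the higher one, by 2.19-fold in the control (2.02 to 2.38) and 3.18-fold in the knockdown (2.97 to 3.40).

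The other PRC2 core subunits did not follow EZH2. SUZ12, the scaffold of the complex, was at 47.0, 40.3 and 42.3 CPM in the shControl, shADAR1 and shHuR inputs and at 63.1 and 25 CPM in the RNA-seq control and knockdown. Its inputs lay close together (log2 ratios -0.22 and -0.16, or -0.47 and -0.45 with trends removed), while the RNA-seq knockdown was 2.53-fold lower than its control (-1.34, -1.44 to -1.24). EED, the subunit that binds the methyl mark, was at 5.54, 6.98 and 6.70 CPM in the inputs and at 21.0 and 18.7 in the RNA-seq pair, with log2 ratios of 0.33, 0.26 and -0.17.

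In PRC1 the RNA-seq pair held members on both sides. BMI1, the PCGF partner of the ubiquitin ligase, was at 58.1 CPM in RNA-seq control cells and 23.6 in the knockdown, 2.46-fold lower (-1.30, -1.40 to -1.20). RNF2, the ligase itself, was at 41.3 and 13.7 CPM, 3.01-fold lower (-1.59, -1.72 to -1.46). CBX7, a reader of the methyl mark, rested on 31 and 163 counts and was 4.01-fold higher in the knockdown (2.01, 1.44 to 2.61). CBX8, another reader, and RING1, the second ligase, were higher by 1.72-fold and 1.67-fold, under the limit. Of the 9 members with at least 50 counts in a library, 1 was called higher and 3 lower, against 8.31% higher and 7.71% lower of all 13235 genes tested.

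The 3 members called lower in the RNA-seq pair are the 3 with the lowest GC content, and with the trends removed only RNF2 (-1.10) stayed past 2-fold, with SUZ12 at -0.81 and BMI1 at -0.88. CBX7 stayed called at 1.88. Their places among all genes tested moved from the 3.3rd to the 8.3rd percentile for SUZ12, from 3.6 to 7.1 for BMI1, from 1.7 to 4.1 for RNF2 and from 97.6 to 98.1 for CBX7. BMI1 shares 23.3% of its exon bases with the readthrough gene COMMD3-BMI1, which had 888 and 1172 counts in the pair. With both counted together the BMI1 ratio was -0.80, under the limit. CBX7 shares 21.6% with other genes, one of them on the opposite strand, and the strand setting of the counting is not given in the sources used here. KDM6B, at 8 and 30 counts, gave a log2 ratio of 1.52 with an interval of 0.36 to 2.85, while its deposited FPKM went from 1.23 to 0.41, so no direction is given for it.

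**Figure D2:**
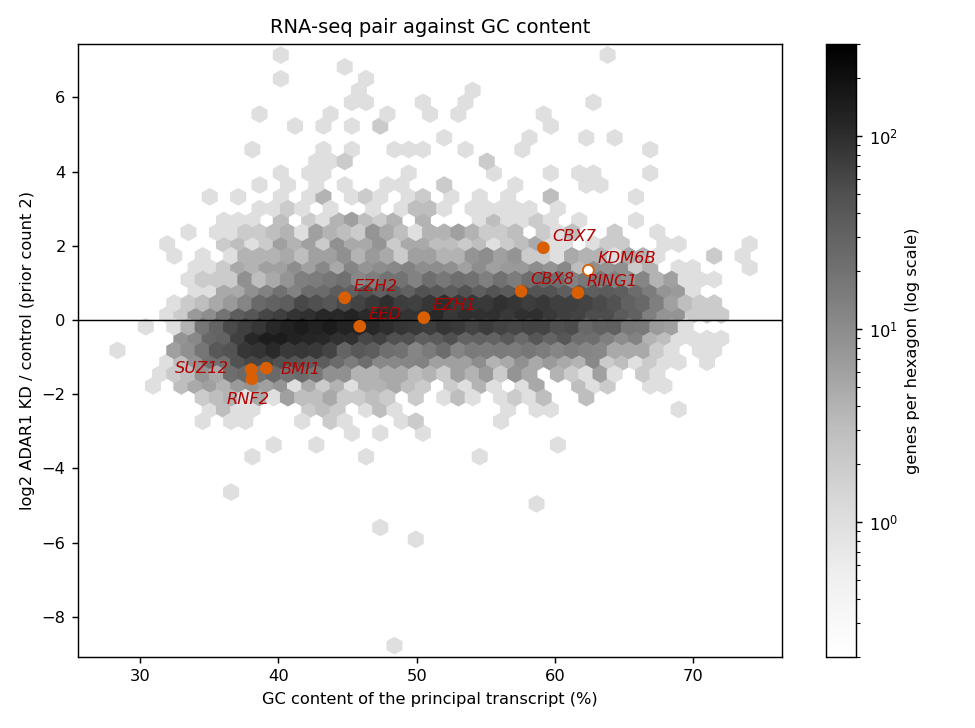
Log2 ratio of the RNA-seq pair (ADAR1 knockdown over control, prior count 2) against GC content of the principal transcript in percent; hexagons count the genes tested, filled points are the 9 members tested and the open point is KDM6B, which had under 50 counts. SUZ12, RNF2 and BMI1 lie together at the low-GC, low-ratio end, and CBX7 lies above the bulk of genes of like GC content.

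In the inputs the PRC1 members moved less. BMI1 was at 31.4, 27.5 and 31.5 CPM in shControl, shADAR1 and shHuR cells and RNF2 at 28.7, 21.2 and 21.0 CPM. RING1 was at 39.2, 28.2 and 29.6 CPM, CBX7 at 6.65, 9.31 and 6.49, and CBX8 at 4.79, 3.65 and 3.34. RNF2, RING1 and CBX8 were each lower in both knockdown inputs than in shControl, with log2 ratios of -0.39 to -0.53, and CBX7 was highest in the shADAR1 input (0.49, 0.27 to 0.70, or 0.71 with trends removed). With trends removed the RING1 ratios were -0.01 and 0.06 and those of RNF2 -0.65 and -0.75. KDM6B was at 22.1, 28.5 and 14.6 CPM, 1.29-fold higher in shADAR1 and 1.52-fold lower in shHuR, the latter at -0.09 with trends removed. Of the 10 members tested, 0 were called higher and 1 lower in shADAR1, against 9.14% and 10.3% of 13192 genes, and 0 and 1 in shHuR, against 12% and 15.9% of 13390 genes.

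The 2 ligases of PRC1 stood in opposite order in the RNA-seq control and the inputs. Per length, RING1 exceeded RNF2 by 2.81-fold, 2.73-fold and 2.90-fold in the shControl, shADAR1 and shHuR inputs. In the RNA-seq control RNF2 exceeded RING1 by 1.97-fold (1.76 to 2.20), and in the RNA-seq knockdown RING1 exceeded RNF2 by 2.55-fold (2.30 to 2.82). The ratio was thus steady across the 3 inputs and turned within the RNA-seq pair. RNF2 is 38.1% GC and RING1 61.6%, and with trends removed their log2 ratios in the RNA-seq pair were -1.10 and 0.43. The part of GC content in this order was not tested.

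**Figure D3:**
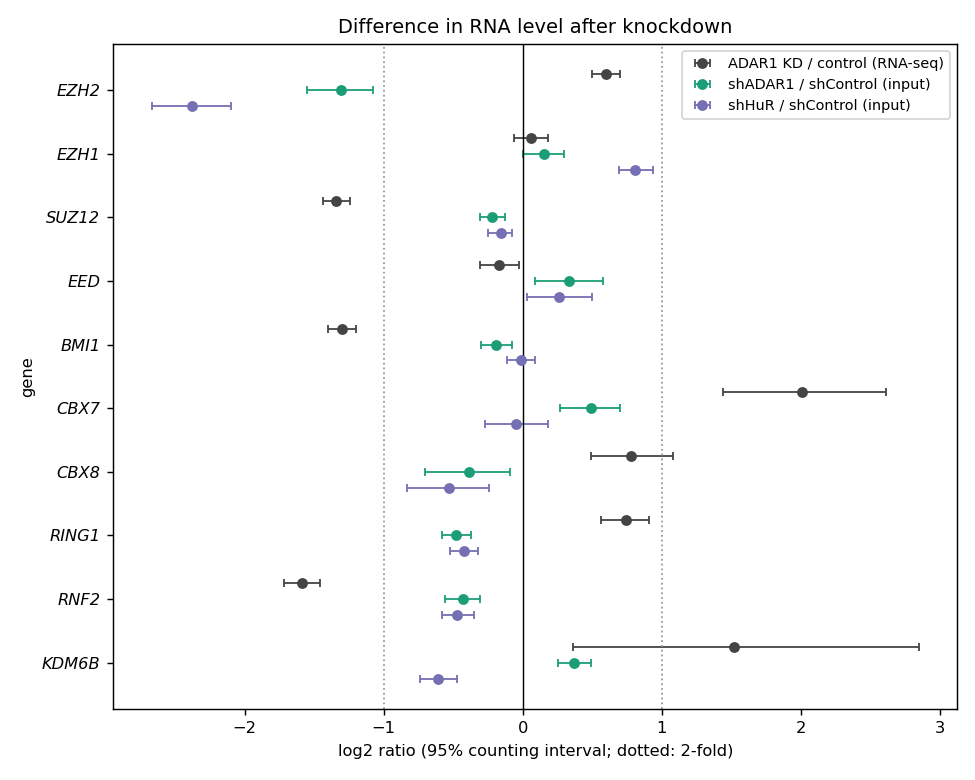
Log2 ratio of each member in the RNA-seq pair (ADAR1 knockdown over control), the shADAR1 input and the shHuR input (each over the shControl input), with 95% intervals that cover counting error only and dotted lines at 2-fold. EZH2 is right of 0 in the RNA-seq pair and left of the lower 2-fold line in both inputs, while SUZ12, BMI1 and RNF2 pass that line only in the RNA-seq pair.

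ADAR1 knockdown was tested over both experiments with edgeR's quasi-likelihood test on the 4 libraries, the experiment as a block and 1 residual degree of freedom. No member passed (0 of 10 at an adjusted p of 0.05, 0 by DESeq2 as well), and 1 had an unadjusted p under 0.05, RNF2. RNF2 had a log2 change of -1.02 (SE 0.46, adjusted p = 1 by edgeR) and was lower in both pairs. CBX7 (1.2, SE 0.6) was higher in both pairs and SUZ12 (-0.78, SE 0.45) and BMI1 (-0.75, SE 0.45) were lower in both, none past the threshold. EZH2, whose pairs differ in sign, had -0.35 (SE 0.54). Over all 15994 genes 0.0813% rose and 0.0125% fell, and ADAR itself, at -2.18 (SE 0.50), had an adjusted p of 0.274 by edgeR and 0.00109 by DESeq2.

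Other genes of the Polycomb system were read from lists by role, beside the shares of all genes called given above. Among 10 other PRC2 subunits, 8 were tested in each pair. AEBP2, an accessory subunit that guides PRC2 to chromatin, was lower in the RNA-seq pair (-1.57), and PHF19, a Polycomb-like subunit, was lower in the shADAR1 (-1.19) and shHuR (-2.20) inputs, where EZH2 was also lower. The medians of this list were -0.14, -0.10 and -0.52 in the RNA-seq pair, the shADAR1 input and the shHuR input. Among other canonical PRC1 subunits, 2 of 8 were higher in the RNA-seq pair, CBX6 (1.51) the further of them, and 1 lower, PHC3 (-1.19). In the shHuR input 4 of 7 were lower, against 15.9% of all genes: CBX2, a reader of the methyl mark, by 12-fold (31 against 400 counts), SCMH1 (-1.55), PHC2 (-1.09) and PHC1 (-1.05), and the list's median was -1.04. None of 8 was called in the shADAR1 input. Of the variant PRC1 subunits, BCOR (1.2) was higher in the shADAR1 input and AUTS2 (-1.86) and KDM2B (-1.38) lower in the shHuR input, of 13 tested in each, with 0 of 12 in the RNA-seq pair. Of 12 enzymes that oppose Polycomb marks, MYSM1, which removes ubiquitin from histone H2A, was lower in the RNA-seq pair (-1.01) and SMARCB1, a remodeller subunit, in the shHuR input (-1.42), with 0 in the shADAR1 input. With the trends removed PHC3 (-0.57), MYSM1 (-0.35), PHC2 (-0.70) and PHC1 (-0.89) were no longer past 2-fold, 1 and not 2 canonical PRC1 subunits stayed higher in the RNA-seq pair, and LCOR (-1.25), E2F6 (-1.07) and USP16 (-1.01) were called lower in the shHuR input. The edgeR test of ADAR1 knockdown called 0 genes in these 4 lists, 0 had an unadjusted p under 0.05, and DESeq2 called 0.

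The locus these genes are named for was read beside them. CDKN2A, which encodes p16, had 182 and 381 counts in the RNA-seq control and knockdown and 1141, 969 and 1947 in the shControl, shADAR1 and shHuR inputs. Its log2 ratio was 0.68 (0.42 to 0.94) in the RNA-seq pair, 0.25 (0.13 to 0.38) in shADAR1 and 0.87 (0.77 to 0.98) in shHuR, none at the limit for a call. With trends removed these were 0.27, 0.75 and 1.33, so that CDKN2A was called higher in the shHuR input. CDKN2B, which encodes p15, was 2.37-fold higher in the shHuR input (2977 against 1349 counts), with log2 ratios of 0.04 in the RNA-seq pair and -0.12 in shADAR1. CDKN2B-AS1, the antisense RNA of the locus, was lower in both inputs, with 11 and 21 against 56 counts, and had 13 and 41 counts in the RNA-seq pair. CDKN2A reads pool its transcripts, so p16 and the alternative frame product cannot be told apart here. Of 39 HOX cluster genes, classic Polycomb targets, 1 of 11 tested was higher in the RNA-seq pair, 5 of 16 were lower in shADAR1 and 1 of 16 in shHuR, with medians of 0.11, -0.73 and -0.69. Over all genes 8.31% were higher in the RNA-seq pair and 10.3% and 15.9% lower in the inputs, with medians of -0.01, -0.03 and -0.03, and with trends removed 0 HOX genes were called in the RNA-seq pair.

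Recovery with the HuR antibody, the ratio of a precipitate to the input of its line, separated the members widely. RNF2 had 11103, 5879 and 3750 counts in the shControl, shADAR1 and shHuR precipitates against 1497, 792 and 1011 in the inputs. That is 12.8-fold, 8.60-fold and 8.84-fold higher (log2 3.68, 3.10 and 3.14). With trends removed it stood at 2.96, 2.87 and 3.21. SUZ12 had 6800, 3866 and 1939 counts in the precipitates against 2451, 1504 and 2039 in the inputs, with log2 ratios of 2.26, 1.57 and 1.18 (1.35, 1.12 and 1.08 with trends removed). KDM6B had 2356, 5028 and 1172 against 1152, 1063 and 706, with 1.82, 2.45 and 1.98 (3.22, 2.96 and 2.03 with trends removed). These were the 3 members called higher in each line, with RNF2 ahead of the others, though KDM6B was ahead in shControl and shADAR1 once trends were removed.

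EZH2, EZH1, EED and RING1 were scarcer in the precipitates than in the inputs. EZH2 had 70, 31 and 16 counts in the precipitates against 671, 193 and 120 in the inputs (log2 ratios -2.47, -2.43 and -1.65). RING1 had 170, 205 and 261 against 2047, 1051 and 1425 (-2.80, -2.15 and -1.20). EZH1 had ratios of -2.04, -1.82 and -0.98 and EED of -1.58, -1.90 and -0.83, so that in shHuR neither was past 2-fold. In shControl and shADAR1 all 4 were called lower, and in shHuR EZH2 and RING1. For RING1, which is 61.6% GC, the ratios with trends removed were -0.48, -0.47 and -0.14, whereas EZH2 stayed at -2.42, -2.07 and -1.26. BMI1 (0.92, 0.09 and -0.11), CBX7 (-0.28, 0.23 and 0.92) and CBX8 (0.11, 0.97 and 0.90) were not called in any line. With the readthrough gene COMMD3-BMI1 counted in, BMI1 stood at 0.34, -0.47 and -0.48. With trends removed CBX8 (1.19, 1.62 and 1.28) was called higher in all 3 lines and CBX7 (1.29) in shHuR, while RING1 lost its calls and EZH1 (-1.09) gained one in shHuR.

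The counts of 3 higher and 4 lower of 10 in shControl stand beside 30.7% higher and 38.3% lower of all 13309 genes tested. In shADAR1, 3 higher and 4 lower stand beside 30% and 37.5% of 13114, and in shHuR, 3 higher and 2 lower beside 25.5% and 25.4% of 13061. The shares of the members are therefore near those of all genes. Scaling by total counts in place of TMM shifted the median gene by -0.87, -0.86 and -0.99 in the 3 lines. On that scale KDM6B was under 2-fold in shControl (0.95) and shHuR (0.98), and so was SUZ12 in shADAR1 (0.71) and shHuR (0.18). BMI1 stood at 0.04 in shControl and was past 2-fold lower in shHuR (-1.10), as was CBX7 in shControl (-1.15).

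**Figure D4:**
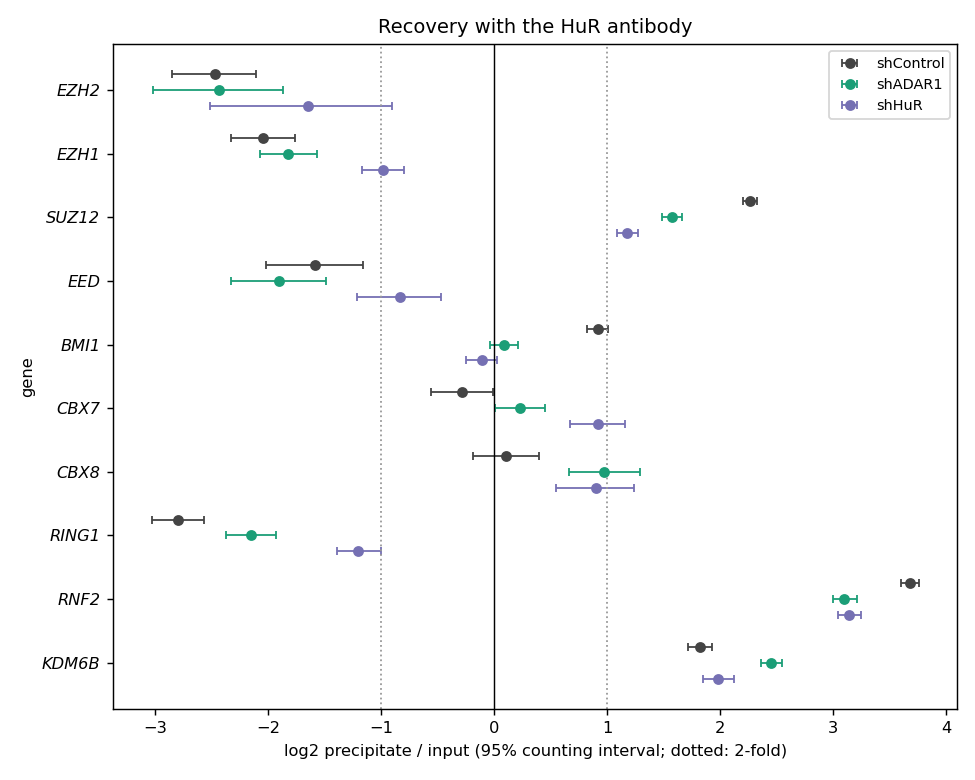
Log2 ratio of the anti-HuR precipitate to the input for each member in shControl, shADAR1 and shHuR cells, with 95% intervals that cover counting error only and dotted lines at 2-fold. RNF2, SUZ12 and KDM6B lie right of the upper line in all 3 lines and EZH2 and RING1 left of the lower line in all 3.

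Over the 3 lines, edgeR's quasi-likelihood test of precipitate against input with the line as a block found 3 members that rose and 4 that fell, at an adjusted p of 0.05. RNF2 rose by 3.36 (SE 0.28, adjusted p = 1.02e-05), KDM6B by 2.13 (SE 0.28, adjusted p = 0.000116) and SUZ12 by 1.72 (SE 0.29, adjusted p = 0.000585) on the log2 scale, each in 3 of 3 lines. EZH2 (-2.16, SE 0.38, adjusted p = 0.000693), RING1 (-2, SE 0.38, adjusted p = 0.00108), EZH1 (-1.56, SE 0.35, adjusted p = 0.00275) and EED (-1.39, SE 0.37, adjusted p = 0.0075) fell, each in 3 of 3 lines. BMI1, CBX7 and CBX8 did not pass (adjusted p = 0.344, 0.418 and 0.0973 by edgeR). Of all 16232 genes 30.3% rose and 31.3% fell. The call of EED was lost without the shADAR1 line (adjusted p = 0.0600 by edgeR), and with GC and length trends removed CBX8 (1.02, adjusted p = 0.0104 by edgeR) and CBX7 (0.72, adjusted p = 0.0347 by edgeR) also rose.

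Recovery was set beside the T runs shown above, which were chosen for display with it known. Over the 10 members the Spearman correlation of the shControl log2 ratio with the number of TTTTTTT starts was 0.79, with 3′ UTR length 0.42, with GC content -0.43, with ATTTA per kilobase 0.25 and with TTTATTT per kilobase 0.45, and 6 members are tied at 0 starts. Over 11765 genes these were 0.67, 0.52, -0.52, 0.37 and 0.43, given as a description of genes that share the same 2 libraries, with no test. Taken per kilobase, as the other motifs were, TTTTTTT starts gave 0.79 over the members and 0.63 over these genes. The classes that follow use the number of starts, not the density. Genes with 0 such starts had a median log2 ratio of -1.78 and 8.23% were called higher. With 1 to 2 starts the median was -0.13 (21.4% higher), with 3 to 9 it was 0.91 (47%) and with 10 or more it was 2.05 (77.5%). RNF2 and KDM6B fall in the last class and SUZ12 in the one before. CBX8, with 9 starts, had a shControl ratio of 0.11, below the median of its class (1.19 with GC and length trends removed). BMI1, with 0 starts and 9 copies of ATTTA, had 0.92, above the median of its class (0.34 with COMMD3-BMI1 counted in). CBX7, with 0 starts and 5 copies of ATTTA, had -0.28. Per kilobase, ATTTA was denser in EZH2 (7.66) and EED (9.48), at ratios of -2.47 and -1.58, than in BMI1 (4.63).

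**Figure D5:**
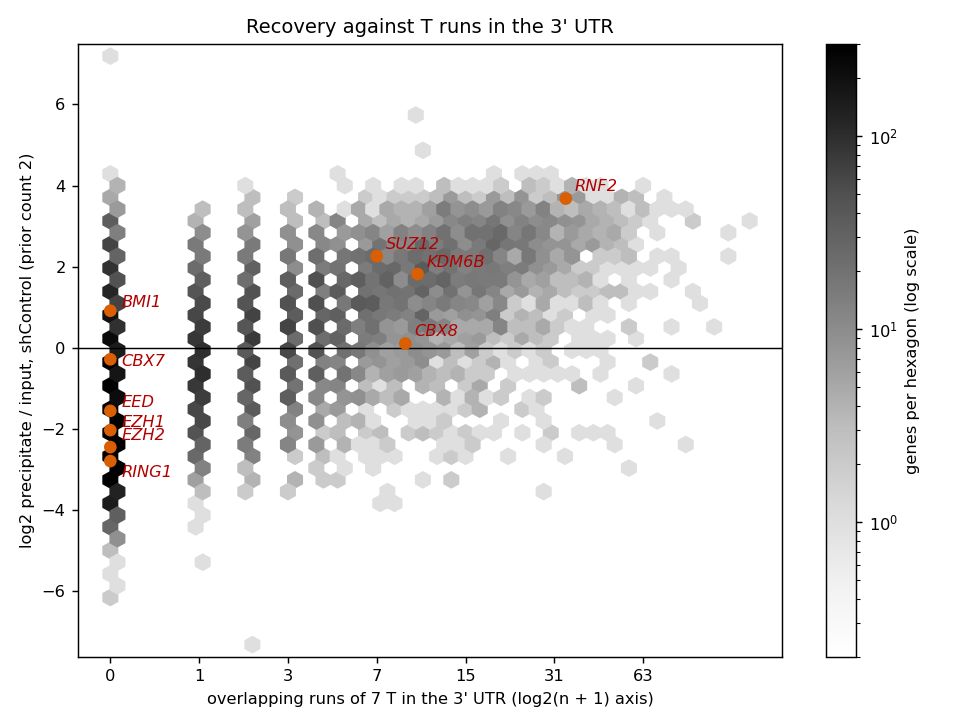
Log2 ratio of the shControl precipitate to its input (prior count 2) against the number of overlapping TTTTTTT starts in the 3′ UTR, on a log2(n + 1) axis; hexagons count the genes tested and points are the 10 members. RNF2, KDM6B and SUZ12 lie at the upper right, and EZH2, EZH1, EED and RING1 lie below 0 at the left edge, where BMI1 stands above them.

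In shADAR1 cells 5 members differed in recovery from shControl by at least 1.5-fold. SUZ12 (-0.69, -0.80 to -0.58) and BMI1 (-0.83, -0.99 to -0.67) were lower, against 14.2% of 12641 genes tested. CBX8 (0.86, 0.44 to 1.28), RING1 (0.65, 0.34 to 0.97) and KDM6B (0.63, 0.49 to 0.77) were higher, against 19.7% of genes. The lower ones are poor and the higher ones rich in GC, and the median difference of all genes went from -0.43 under 40% GC to 0.81 at 60% or more. RNF2 (-0.58, -0.71 to -0.44) was just short of the limit, and stood at -0.09 with trends removed. With the trends removed no member was called, with SUZ12 at -0.24, BMI1 at -0.36, CBX8 at 0.47, RING1 at 0.04 and KDM6B at -0.25.

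In shHuR cells, where less HuR RNA was present, recovery of SUZ12 was 2.12-fold lower (-1.08, -1.19 to -0.97) and that of BMI1 2.03-fold lower (-1.02, -1.19 to -0.85) than in shControl. RNF2 was 1.45-fold lower (-0.54, -0.66 to -0.41), short of the 1.5-fold limit (-0.66, past it, with scaling by total counts), and KDM6B differed little (0.16, -0.01 to 0.33). The other 6 members were higher, RING1 by 3.04-fold, CBX7 by 2.30-fold, EZH1 by 2.09-fold, EZH2 by 1.76-fold, CBX8 by 1.73-fold and EED by 1.67-fold, and for EZH2, with 16 precipitate counts in shHuR, the interval took in 0 (-0.02 to 1.65). Beside these 2 lower and 6 higher stand 23.5% lower and 39.4% higher of all 12468 genes tested. The median difference of all genes went from -0.65 under 40% GC to 1.68 at 60% or more. With the trends removed EZH2 (0.99), EZH1 (0.83) and EED (0.78) stayed higher and KDM6B (-1.38) was lower. SUZ12 (-0.44), BMI1 (-0.46), RING1 (0.15), CBX7 (0.18), CBX8 (-0.05) and RNF2 (0.1) were then not called, CBX8 and RNF2 with their signs turned. Both differences use the same shControl libraries. After scaling, recovery is relative to the other genes of the libraries, so a change in the total RNA precipitated would not show.

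Other genes of these complexes were found on both sides in recovery, as were genes at large (30.3% rose and 31.3% fell). In the edgeR test of precipitate against input, 4 of 8 other PRC2 subunits rose and 2 fell. In shControl the highest were RBBP4, a histone-binding subunit (log2 ratio 3.28), LCOR (3.18), AEBP2 (2.81) and JARID2, a PRC2 cofactor (2.51), and the lower ones were RBBP7 (-2.58), the paralog of RBBP4, and PHF19 (-2.46). Of 8 other canonical PRC1 subunits 3 rose and 2 fell, with CBX6 (3.16), PHC3 (2.47) and PHC1 (1.48) above and CBX2 (-1.79) and SCMH1 (-1.18) below in shControl. Of 13 variant PRC1 subunits 5 rose and 3 fell, led in shControl by RYBP (2.32) and PCGF3 (1.73) and, below, L3MBTL2 (-2.51), PCGF1 (-1.81) and E2F6 (-1.67). Of 12 opposing enzymes 3 rose and 5 fell, with MYSM1 (2.50) and KMT2C (1.85) above and BAP1 (-2.33), USP16 (-2.24), SMARCA4 (-2.13) and KMT2B (-2.12) below in shControl. With trends removed the number lower in shControl went from 5 to 1 of 12 opposing enzymes (USP16, -2.83), from 2 to 0 of 8 canonical and from 3 to 2 of 13 variant PRC1 subunits, and stayed at 2 of 8 PRC2 subunits. The number higher went from 2 to 3, from 4 to 5 and from 2 to 4 in the same order, and stayed at 5 of the PRC2 subunits. The paralogs EZH2 and EZH1 were both scarce in the precipitates, whereas RNF2 and RING1, and RBBP4 and RBBP7, stood on opposite sides. At the p16 locus CDKN2B rose (1.75, SE 0.32, adjusted p = 0.000848 by edgeR) and CDKN2A fell (-1.85, SE 0.32, adjusted p = 0.000643 by edgeR). In shControl CDKN2A stood at -2.20, and at 0.54 with the trends removed.

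Patterns over the 8 libraries were compared after each kind of library (RNA-seq, input, precipitate) was centred on its mean. Among 9507 genes with at least 50 counts in every library, those most like EZH2 by Pearson correlation were HIVEP3 (0.996), CDK4 (0.991) and TBL1X (0.988). Those most like BMI1 were KCTD18 (0.996), CSE1L (0.99) and PAPOLA (0.99). Those most like CBX7 were MAGI1 (0.989), NNMT (0.98) and GRAMD1B (0.977), and those most like KDM6B were FAM43A (0.976), GLIS3 (0.973) and ZMIZ1 (0.967). The minimum of 50 counts applied to the genes compared and not to these members. EZH2 had 31 and 16 counts in the shADAR1 and shHuR precipitates and CBX7 31 in the RNA-seq control. KDM6B had 8 and 30 in the RNA-seq pair, where no direction is given for it. The genes named were picked as the highest of 9507. How high such values run over 8 libraries by selection alone was not tested. Among the members, SUZ12, BMI1 and RNF2 were closest to each other (0.97 to 0.98) and CBX7 ran against BMI1 (-0.98). These values describe 8 libraries that share the GC trends given above. SUZ12, BMI1 and RNF2 are the 3 members poorest in GC. EZH2 and EED, at 44.8% and 45.9% GC, correlated at -0.55, and RING1 and KDM6B, at 61.6% and 62.4%, at -0.06. The part of GC content in these patterns was not tested.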

How the data were processed

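Sample titles gave the groups, and file headers tied columns to samples. The deposited expected counts are gene-level values of RSEM 1.2.3 on hg19, per the submitters' processing notes, where GRCh37 is named too for the precipitation. They are whole numbers and were used as they stand. The RNA-seq file also holds FPKM as deposited by the authors, used as an alternative with a pseudocount of 0.1. The notes also name DESeq2. The aligner, annotation and strand setting are not given in the sources used here. Per the labels' protocols, the KAPA RNA HyperPrep kit made the libraries and the Magna RIP kit the precipitates.

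Pairs of libraries were compared as log2 ratios of TMM-scaled counts (edgeR 4.0.16, R 4.3.3) with exact conditional binomial intervals at 95%. Precipitates and inputs were scaled together for levels and recovery. Differences in recovery have normal intervals from the reciprocal counts. A prior count of 2 served for calls, medians and percentiles, which needed 2-fold (1.5-fold for differences in recovery) and at least 50 counts in a library (for differences, in the precipitate or input of each line). GC and length trends were removed with smooth terms (mgcv 1.9.3) fitted on principal transcripts of GENCODE 29, which also gave the 3′ UTRs. Models over 4 and 6 libraries used edgeR's quasi-likelihood test with Benjamini-Hochberg adjustment over all genes, with DESeq2 1.42.0 as an alternative, and were tested on simulated data. The p-values measure the spread between these libraries, which may be technical. The pairing in both models comes from the labels, since libraries of a block share the experiment or the cell line.

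Symbols were found for 52301 of 57736 IDs. PCGF2, EPOP and PECAM1 are not analysed here. The members and lists were chosen with earlier results of these data known. Named were the members, the knockdown targets, the p16 locus and near copies, the called genes of the other Polycomb lists (up to 4 a direction) and the 3 genes most like each of 4 members. Some genes of the lists are not reported here. MKI67 was named after its values were seen. Of the near copies, EZH2P1 had 0 counts in all libraries and BMI1P1 1 count in one. SUZ12P1 had 132 and 198 counts in the RNA-seq pair and 80 to 200 in the inputs, and adding it to SUZ12 gave -1.20 in the RNA-seq pair.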

Additional observations from a re-analysis of the deposited data

Results flagged for a closer look

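For 4 members the ADAR1 knockdown pair of the RNA-seq and the shADAR1 input went in opposite directions, each with 1 library a group. EZH2 had a log2 ratio of 0.60 in the RNA-seq pair and -1.31 in the shADAR1 input. CBX8 had 0.78 and -0.39, RING1 0.74 and -0.48, and EED -0.17 and 0.33. The difference between the experiments was not tested. With GC and length trends removed the RING1 values were 0.43 and -0.01, and those of EZH2 0.65 and -1.38.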

How the results depend on the processing

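In the edgeR test of precipitate against input the 7 member calls kept their direction under each alternative run; EED lost its call without shADAR1 and EZH1 with no replicate block (adjusted p = 0.0809 by edgeR). With GC and length trends removed 5 members rose and BMI1, not called, changed sign (-0.24). The single-line ratios with trends removed were each centred on the median gene. There BMI1 stood at 0.33, -0.03 and 0.02, and RING1 at -0.48, -0.47 and -0.14 with no call, in shControl, shADAR1 and shHuR. The edgeR test of precipitate against input found 3020 genes that fell with no replicate block, against 5087 with it. Leaving out 1 line gave 2831 (without shADAR1) to 5383 genes that rose, against 4926. The test of ADAR1 knockdown called 13 genes that rose and 2 that fell, against 93 and 27 by DESeq2, 140 and 34 with no filter, 0 and 0 with no replicate block, and 0 and 0 with trends removed. In it EZH2 (0.2), EED (-0.02) and RING1 (-0.21) changed sign with no replicate block, EZH2 (0.6) and EED (-0.17) in the RNA-seq pair alone, and CBX8 (-0.39) and RING1 (-0.48) in the shADAR1 input alone. The block changed no other member's call. With 1 library a group, no replicate could be left out of a pair. At a 1.5-fold limit, by construction, 2422 genes were higher and 2551 lower in the RNA-seq pair (1100 and 1020 at 2-fold), 2492 and 2803 in the shADAR1 input (1206 and 1356) and 3061 and 3566 in the shHuR input (1610 and 2123), with 4 members higher in the RNA-seq pair and 1 higher and 2 lower in shHuR. With no minimum count, which adds sparse genes, these were 3142 and 2409, 3232 and 3293, and 4193 and 3972, with 2 members higher in the RNA-seq pair. With no minimum, 6686 genes were higher in the shControl precipitate, 6823 in shADAR1 and 6244 in shHuR, where 5048 were lower, and recovery differed upward for 5371 and downward for 3799 in shADAR1 and for 8106 and 5038 in shHuR. At 200 counts, 672 genes and 0 members were higher in the RNA-seq pair, since CBX7 dropped out, and 1 member was lower in the shHuR precipitate. Scaling by total counts left 2383, 2340 and 1960 genes higher in the shControl, shADAR1 and shHuR precipitates, and in shHuR 7409 lower, with 1 member higher and 5 lower. With trends removed, 1 member was lower in the RNA-seq pair; 3100, 2919 and 1618 genes were lower in the shControl, shADAR1 and shHuR precipitates; 5 members were higher in shHuR; recovery differed upward for 1170 genes and downward for 907 in shADAR1, with 0 members either way and KDM6B turned (-0.25); and in shHuR upward for 2808 genes and 3 members and downward for 1 member, with CBX8 turned (-0.05). For changes with trends removed or with another scaling the cause was not tested. Prior counts of 0.5 changed no value beyond its limit. Few counts widened the intervals of KDM6B in the RNA-seq (8 and 30) and EZH2 in the precipitates (16 to 70).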
